A study of Mus musculus with 12 samples.

Results

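The 35 genes described here are the cadherins and nonclustered protocadherins on a mouse whole-transcriptome array, measured in the cell body and dendritic layers of hippocampal fields CA1 and CA2. The rule for membership is the gene symbol: 23 genes named Cdh and 12 named Pcdh followed by a number, of 30142 genes tested, with the clustered protocadherins left aside. Each of the 35 was read by 1 array feature. By the usual classes they comprise 5 type I classical cadherins, 13 type II classical cadherins, 5 other cadherins, 4 δ1-protocadherins, 5 δ2-protocadherins and 3 other protocadherins.

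Cadherins are calcium-dependent adhesion proteins of the cell surface. Classical cadherins bind partners on the next cell through their outermost domain and hold the actin cytoskeleton through β-catenin and α-catenin, while p120-catenins set how long they stay at the surface. In the brain, neuron types carry different sets of type II cadherins, which act in the sorting of neurons and in the choice and shaping of synapses. The δ-protocadherins adhere more weakly and signal to actin through other partners, among them the WAVE regulatory complex.

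The arrays came from 3 male mice of the line Amigo2-EGFP on a C57BL/6J background, 6 to 8 weeks old and from separate litters. All 4 groups carry the same reporter, a fluorescent protein driven by Amigo2, a gene known as a marker of CA2, and no group was treated. From each brain the pyramidal cell layer (stratum pyramidale, called the cell body layer) and the stratum radiatum (called the dendritic layer) of CA1 and of CA2 were taken by laser capture, which gave 3 arrays for each of 4 groups. The captured pieces hold every cell type of their layer: the dendritic layer contains apical dendrites of pyramidal neurons along with axons, interneurons, glia and vessels. The authors' values are log2 expression from RMA, a robust multi-array average, so a difference of 1 is a 2-fold difference, and group values are means ± SD of 3 arrays. Levels of different genes were not set against each other, because each array feature has its own response.

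The cell body layers of the regions differed in known markers. Amigo2 was 2.83 higher in the CA2 than in the CA1 cell body layer (SE 0.11, limma adjusted p = 1.79e-07), and Wfs1, a marker of CA1 neurons, differed by -2.72 (adjusted p = 1.20e-06). All 11 measured CA2 markers were higher in the CA2 cell body layer. In the dendritic layer 5 of 11 were, and Amigo2 (0.30, adjusted p = 0.0646) and Rgs14 (0.06, adjusted p = 0.537) were not called. Within CA1, 6 of these 11 were higher in the dendritic layer and 2 lower, beside 28.3% and 18.5% of all genes. Pcp4 (2.21) was among the higher and Rgs14 (-0.88) among the lower. The CA3 markers were also higher in the CA2 cell body layer, 7 of 7 measured of 8 listed, with a summed level (log2 of the sum of linear values) of 12.85 to 12.94 against 11.62 to 11.70 in CA1; the part of neighbouring CA3 neurons in the results below was not tested. On 3 arrays, CA2 cell body 1 and CA2 dendrite 2 and 3, a list of 17 oocyte genes averaged 7.16, 7.28 and 7.21, against 5.51 to 5.88 on the other 9 arrays. Several results below are also given without these 3 oocyte-positive arrays. The label of every CA1 array gives run 938 and that of every CA2 array run 907. For CA2 against CA1, region and run therefore cannot be told apart, while both layers of a region share their run.

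The first comparisons asked which members differ between the layers of each region. Of the members, 13 rose and 10 fell from cell body to dendritic layer in CA1, and 9 rose and 11 fell in CA2 (limma, Benjamini-Hochberg adjusted p under 0.05 over all genes). The vascular cadherin Cdh5, the cadherins Cdh19 and Cdh20 and the protocadherins Pcdh11x, Pcdh15 and Pcdh18 were higher in the dendritic layer of both regions. Cdh8, Cdh11, Cdh12, Cdh18, Pcdh1, Pcdh9, Pcdh19 and Pcdh20 were lower in it in both. Cdh6 and Cdh9 were called in opposite directions in CA1 and CA2. In captured tissue, fewer cells of a type and less RNA per cell cannot be told apart.

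These counts are set beside those over all genes. In CA1 65.7% of the members passed, beside 46.9% of all genes (28.3% higher and 18.5% lower). In CA2 57.1% passed, beside 34.0% of all genes (16.2% higher and 17.8% lower). A filter on low values kept genes above the 95th percentile of olfactory and vomeronasal receptor genes in at least 1 group. Past it, 23 of 32 members and 60.2% of genes were called in CA1. In CA2 21 of 32 members and 51.6% of genes were. Shares of all genes given elsewhere include the genes that this filter removes. Without the oocyte-positive arrays 16 members passed in CA2 in place of 20, and 18.9% of all genes. At least 2-fold, 6 members were higher and 6 lower in the CA1 dendritic layer, beside 3.31% and 2.82% of all genes, and 5 were higher and 3 lower in CA2, beside 3.27% and 2.58%. The median difference of the members was 0.14 in CA1 (all genes 0.12) and -0.06 in CA2 (all genes -0.03), and members lay on both sides of 0 in each region. The 6 that were higher in both regions stood beside 12.4% of all genes, the 8 that were lower in both beside 12.2%, and the 2 with opposite calls beside 1.17%.

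**Figure D1:**
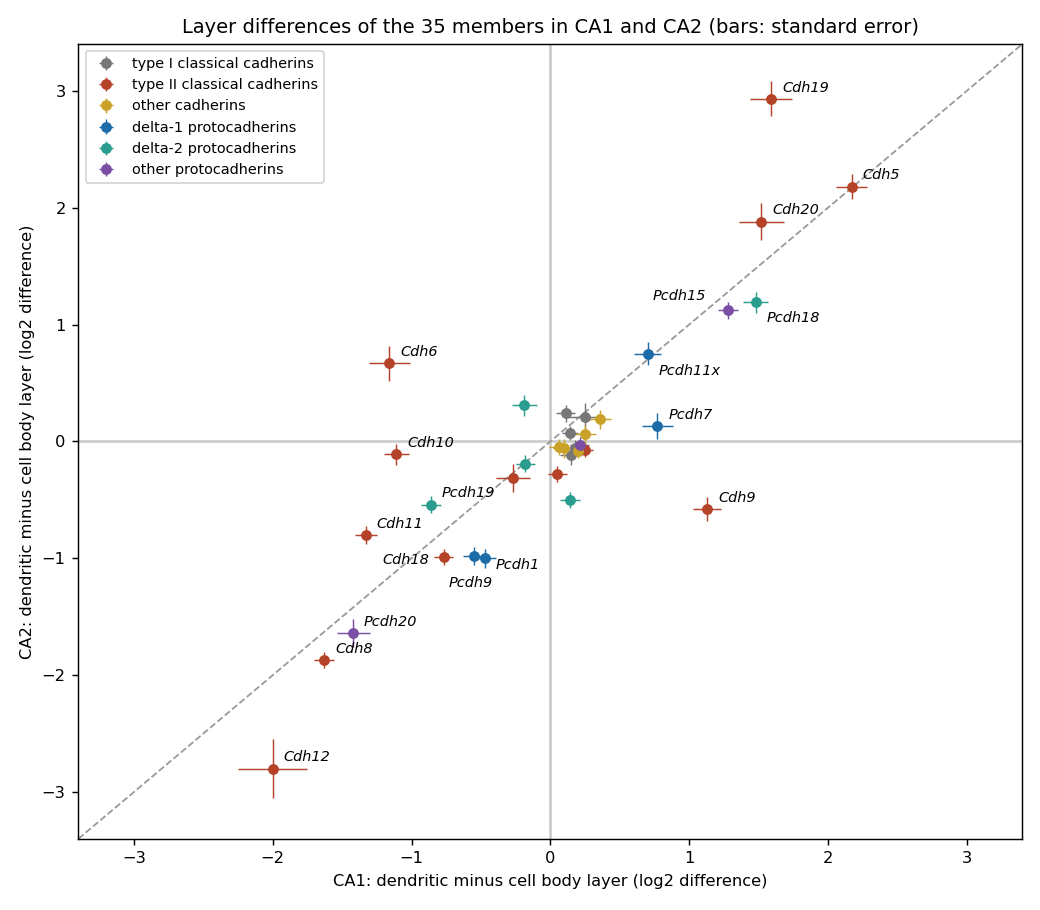
Each point is 1 of the 35 members, with its dendritic minus cell body difference (log2) in CA1 on the x axis and in CA2 on the y axis; bars are standard errors from limma, colours are subfamilies and the dashed line marks equal differences. Most members lie along the line from Cdh12 (-2.0 and -2.80) to Cdh5 (2.17 and 2.18). Cdh6 and Cdh9 are the 2 members called in opposite directions in CA1 and CA2. Other members with opposite signs were not called in both regions.

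Of the 13 type II cadherins, 5 were higher and 6 lower in the CA1 dendritic layer, where 28.3% and 18.5% of all genes were. In that of CA2 4 were higher and 6 lower, beside 16.2% and 17.8% of all genes. Of the 5 type I cadherins, 0 were called in CA1 and 1 in CA2, beside 46.9% and 34.0% of all genes in either direction.

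Cdh6 (K-cadherin) and Cdh9 (T1-cadherin), both type II, had mirror-image patterns across the 4 groups. Their genes are neighbours on chromosome 15 in the mouse RefSeq annotation, with no protein-coding gene between them, followed by Cdh10 and Cdh12. The 250 bases before the annotated start of each gene (RefSeq, build GRCm38.p6, 5′ to 3′ on the gene's strand) are shown because this pair carries the clearest difference between regions; capitals mark the longest run of letters that both hold, 15 bases.
Cdh6 (chr15:13173676-13173925, minus strand): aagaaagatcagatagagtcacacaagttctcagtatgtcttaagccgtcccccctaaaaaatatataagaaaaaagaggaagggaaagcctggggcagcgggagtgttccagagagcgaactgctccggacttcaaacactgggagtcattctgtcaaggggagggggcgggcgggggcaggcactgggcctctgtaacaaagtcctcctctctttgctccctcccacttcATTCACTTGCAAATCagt
Cdh9 (chr15:16728665-16728914, plus strand): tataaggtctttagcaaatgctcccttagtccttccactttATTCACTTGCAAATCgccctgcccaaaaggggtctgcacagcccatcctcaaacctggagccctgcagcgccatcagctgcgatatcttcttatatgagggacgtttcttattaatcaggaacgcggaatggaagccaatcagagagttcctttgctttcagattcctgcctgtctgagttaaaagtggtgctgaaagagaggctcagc
The run lies 18 to 4 bases before the start of Cdh6 and 209 to 195 bases before that of Cdh9, on the same strand relative to each gene. On either strand it occurred in 2 of the 32851 promoters of this length that were searched (0.00609%), which are these 2. Promoters outside the searched set were not checked for the run. The searched set held a promoter for 22 of the 35 members. Among the 45 pairs of the 10 type II members in it, the longest shared run had a median of 8 bases and the next longest had 13. The match was found after the expression values were known and is a description of letters, not of a binding site.

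Cdh6 read 8.55, 8.64 and 8.28 in CA1 cell bodies and 7.27, 7.17 and 7.55 in CA1 dendrites. In CA2 it read 6.48, 6.69 and 6.83 in the cell body layer and 7.36, 7.56 and 7.10 in the dendritic layer. The CA1 cell body arrays were above all others, the CA2 cell body arrays were below all others, and the dendritic layers of both regions overlapped. The dendritic layer was 1.16 lower in CA1 (log2 difference -1.16, SE 0.15, limma adjusted p = 1.24e-04) and 0.67 higher in CA2 (SE 0.15, adjusted p = 0.00501). The CA2 call was lost without replicate 1 (0.57, adjusted p = 0.0776), without replicate 2 (0.57, adjusted p = 0.0501) and without the oocyte-positive arrays (0.60, adjusted p = 0.158). The difference between the regions' layer differences, 1.83 (SE 0.21, adjusted p = 7.00e-04), passed in every alternative.

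Cdh9 read 6.66, 6.43 and 6.35 in the CA1 cell body layer and 7.69, 7.43 and 7.71 in the CA1 dendritic layer. Its CA2 values were 8.75, 8.31 and 8.51 in the cell body layer and 7.92, 7.88 and 8.04 in the dendritic layer. Here the CA2 cell body arrays were the highest and the CA1 cell body arrays the lowest, with no overlap between any of the 4 groups. Cdh9 rose by 1.13 from cell body to dendritic layer in CA1 (SE 0.10, adjusted p = 6.88e-06) and fell by 0.58 in CA2 (SE 0.10, adjusted p = 7.73e-04). The 2 layer differences differed by -1.71 (SE 0.14, adjusted p = 7.01e-05).

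Cdh10, the next type II gene along chromosome 15, was high in the CA1 cell body layer, at 9.75, 9.64 and 9.69, and read 8.49, 8.54 and 8.71 in the CA1 dendritic layer. The CA2 values were 8.90, 9.01 and 9.06 in the cell body layer and 9.03, 8.86 and 8.76 in the dendritic layer. The CA1 cell body arrays stood above the other 3 groups, and the layers of CA2 overlapped. Cdh10 fell by 1.11 in CA1 (SE 0.09, adjusted p = 5.35e-06), differed by -0.11 in CA2 (SE 0.09, adjusted p = 0.443), and its layer differences differed by 1.01 (SE 0.13, adjusted p = 0.00125).

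**Figure D2:**
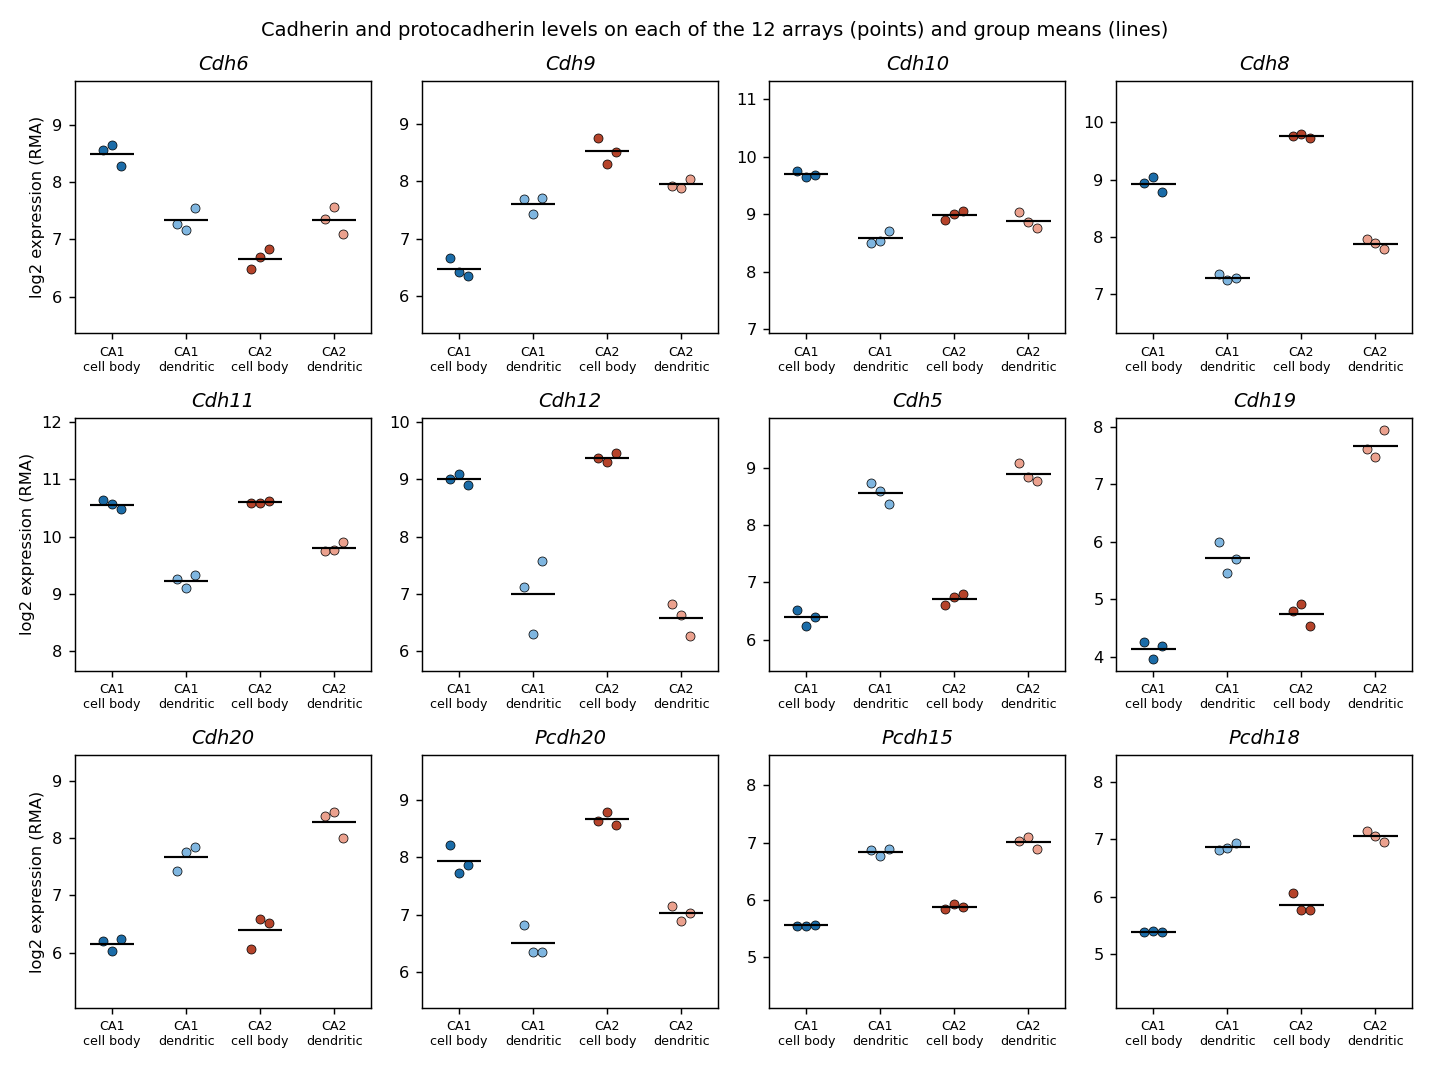
Log2 expression (RMA) of 12 members on each of the 12 arrays, by group; points are arrays, lines are group means of 3 arrays, and every panel spans the same log2 range. Cdh6 is highest in the CA1 cell body layer (8.49) and lowest in that of CA2 (6.67), Cdh9 shows the reverse (6.48 and 8.52), and Cdh12 varies most among the CA1 dendrite arrays (6.31 to 7.58).

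Cdh8, Cdh11 and Cdh12, all type II, had lower values toward the dendrites in CA1 and in CA2. Cdh8 read 8.94, 9.04 and 8.78 in the CA1 cell body layer against 7.35, 7.25 and 7.28 in the dendritic layer, and in CA2 9.76, 9.79 and 9.72 against 7.97, 7.89 and 7.79. It fell by 1.63 in CA1 (SE 0.07, adjusted p = 7.97e-08) and fell by 1.87 in CA2 (SE 0.07, adjusted p = 3.22e-08). All 4 groups were separate, with CA2 above CA1 in both layers.

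Cdh11 (OB-cadherin) read 10.63, 10.57 and 10.48 in the CA1 and 10.59, 10.59 and 10.62 in the CA2 cell body layer, so the cell bodies of both regions overlapped. In the dendritic layers it read 9.27, 9.10 and 9.33 in CA1 and 9.75, 9.76 and 9.90 in CA2. The fall was 1.33 in CA1 (SE 0.08, adjusted p = 5.24e-07) and 0.80 in CA2 (SE 0.08, adjusted p = 1.57e-05). The 2 layer differences differed by 0.53 (SE 0.11, adjusted p = 0.0131), a call lost without replicate 1 (0.54, adjusted p = 0.0986), without replicate 2 (0.48, adjusted p = 0.144) and without the oocyte-positive arrays (0.39, adjusted p = 0.239).

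Cdh12 (N-cadherin 2) had the largest fall of any member in each region. It read 9.01, 9.09 and 8.90 in the CA1 cell body layer and 7.12, 6.31 and 7.58 in the dendritic layer, and in CA2 9.37, 9.30 and 9.46 against 6.83, 6.64 and 6.27. Its layer difference was -2.0 in CA1 (SE 0.25, adjusted p = 9.07e-05) and -2.80 in CA2 (SE 0.25, adjusted p = 9.04e-06). The CA1 dendrite arrays spread most (SD 0.64), and the layer differences of the regions were not called different (-0.80, adjusted p = 0.15), except without CA1 dendrite array 2 (-1.16). Cdh18, a further type II gene, fell by 0.77 in CA1 (adjusted p = 1.64e-05) and by 0.99 in CA2 (adjusted p = 2.84e-06), and Cdh7 differed by -0.27 and -0.31 (adjusted p = 0.0913 and 0.0734). Of the markers of CA1 neurons, 5 of 7 were lower and 1 higher in the CA1 dendritic layer (median -0.94), and of those of CA2 neurons 11 of 11 were lower in that of CA2 (median -1.19).

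The type II genes that were higher in the dendritic layer include one known from vessels. Cdh5 (VE-cadherin), the adherens junction cadherin of endothelial cells, read 6.52, 6.24 and 6.40 in the CA1 cell body layer and 8.73, 8.59 and 8.36 in the dendritic layer. In CA2 it read 6.60, 6.75 and 6.79 against 9.08, 8.84 and 8.76. The layers did not overlap in either region, and the rises of 2.17 in CA1 (SE 0.11, adjusted p = 1.99e-07) and 2.18 in CA2 (SE 0.11, adjusted p = 1.62e-07) differed by 0.01 (SE 0.15, adjusted p = 0.98). All 12 endothelial markers rose toward the dendrites in CA1 and in CA2, and their summed level went from 10.27 to 10.37 up to 12.38 to 12.51 in CA1 and from 10.56 to 10.67 up to 12.82 to 12.92 in CA2; their part in the rise of Cdh5 was not tested.

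Cdh19, a type II cadherin known from glia of the nerve sheath, read 4.25, 3.96 and 4.19 in the CA1 cell body layer and 6.00, 5.46 and 5.70 in the dendritic layer. In CA2 the cell body arrays read 4.80, 4.91 and 4.53 and the dendrite arrays 7.61, 7.47 and 7.95. The CA2 dendrite arrays stood above all others, and only their mean exceeded the level of olfactory and vomeronasal receptor genes, whose 95th percentile was 5.86 to 5.97 by group and which serve here as a reference for genes not made in this tissue. Cdh19 rose by 1.59 in CA1 (SE 0.15, adjusted p = 1.47e-05) and by 2.93 in CA2 (SE 0.15, adjusted p = 2.08e-07). The difference between these, 1.34 (SE 0.21, adjusted p = 0.00404), was not called without the oocyte-positive arrays, which leaves 1 CA2 dendrite array (1.01, adjusted p = 0.11).

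Cdh20 read 6.20, 6.03 and 6.24 in the CA1 cell body layer and 7.42, 7.75 and 7.85 in the dendritic layer, and in CA2 6.07, 6.58 and 6.52 against 8.38, 8.45 and 7.99. It was higher in the dendritic layer on every array, by 1.52 in CA1 (SE 0.16, adjusted p = 2.87e-05) and 1.88 in CA2 (SE 0.16, adjusted p = 6.29e-06). Beside these values, 10 of 11 measured oligodendrocyte markers (12 listed) and 8 of 9 precursor markers (10 listed) were higher in the dendritic layer of each region, with 1 precursor marker lower in CA1. The summed oligodendrocyte level was 10.42 to 10.58 in the CA1 cell body, 11.71 to 12.03 in the CA1 dendritic, 10.95 to 11.07 in the CA2 cell body and 12.33 to 12.54 in the CA2 dendritic pieces. The precursor level was 10.86 to 10.94, 11.49 to 11.55, 10.75 to 10.81 and 11.48 to 11.53 in the same order. All 12 astrocyte markers were higher in the dendritic layer of both regions as well, and the part of any glial class in Cdh19 and Cdh20 was not tested.

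The remaining type II genes moved little. Cdh22 rose by 0.25 in CA1 (adjusted p = 0.00671), a call lost without replicate 1 or 2, and differed by -0.07 in CA2. Cdh24 differed by 0.05 in CA1 and by -0.28 in CA2 (adjusted p = 0.00675), the latter not called without replicate 2, replicate 3 or the oocyte-positive arrays.

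Among the type I cadherins, Cdh2 (N-cadherin), the main classical cadherin of excitatory synapses, read 9.14 ± 0.08 in CA1 cell bodies, 9.29 ± 0.06 in CA1 dendrites, 9.27 ± 0.06 in CA2 cell bodies and 9.34 ± 0.02 in CA2 dendrites (SD, n = 3). Its layer differences were 0.14 (SE 0.06, adjusted p = 0.0829) and 0.07 (SE 0.06, adjusted p = 0.441), and its region differences 0.12 and 0.05. Cdh4 (R-cadherin) differed by 0.11 in CA1 and by 0.24 in CA2 (adjusted p = 0.0259, not called in 11 of 25 alternatives), and Cdh3 and Cdh15 were between -0.12 and 0.18 in both regions.

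Cdh1 (E-cadherin), the epithelial cadherin, was not called between layers or regions in the main fit. Its CA2 minus CA1 difference was called in 7 of 25 alternatives in the cell body layer and in 5 in the dendritic layer. Quantile normalization and median centring, which keep all arrays, were among both. The layer difference was called in 3 of 25 alternatives in CA2 and in 1 in CA1 (0.25, limma adjusted p = 0.113 in the main fit). Cdh1 read 6.49 on CA2 cell body array 1 and 6.46 and 6.46 on CA2 dendrite arrays 2 and 3, the 3 arrays with high oocyte genes. On the other 9 arrays it read between 5.78 and 6.26. In the comparison of cell body layers it was 0.36 higher in CA2 (adjusted p = 0.0592), and its SD in the CA2 cell body layer was 0.27 against 0.04 in that of CA1. The part of the oocyte transcripts in these values was not tested.

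**Figure D3:**
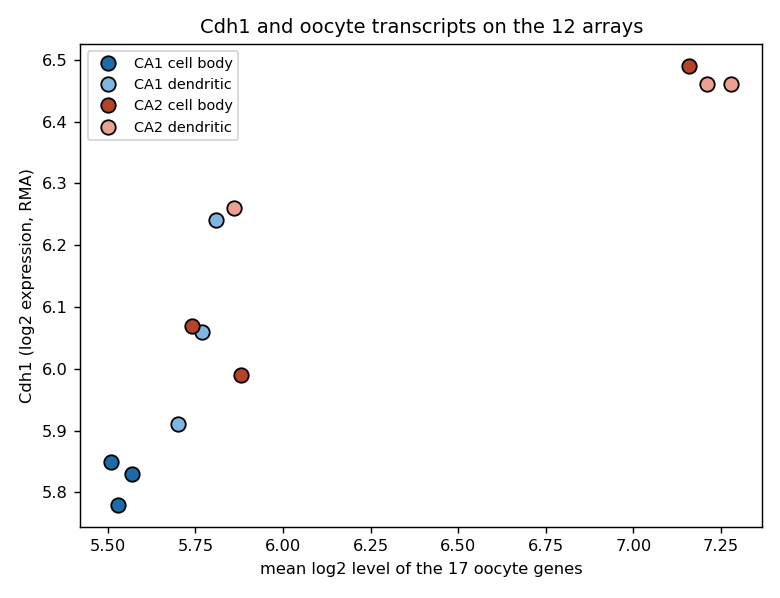
Cdh1 (log2 expression, y axis) against the mean log2 level of 17 oocyte genes (x axis) on the 12 arrays, coloured by group. The 3 arrays with an oocyte mean of 7.16 to 7.28 have the 3 highest Cdh1 values, 6.46 to 6.49.

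Of the other cadherins, Cdh13 (T-cadherin), which is anchored by lipid and lacks the catenin-binding tail, rose by 0.36 in CA1 (adjusted p = 0.00388, not called without replicate 1 or replicate 3) and differed by 0.19 in CA2 (adjusted p = 0.0948). Cdh23, the tip-link cadherin of hair cells, and Cdh26 differed by 0.20 and 0.25 in CA1 (adjusted p = 0.0278 and 0.0243), calls lost in 12 of 25 and 10 of 24 alternatives. Cdh16 and Cdh17, cadherins of kidney and gut epithelium, were not called in any comparison. Cdh17, Cdh26 and the endothelial Pcdh12 stayed at or below the receptor level in all 4 groups. Of 10525 genes at or below it throughout, 25.5% were called higher and 1.85% lower in the CA1 dendritic layer, so the small rises of Cdh26 and Pcdh12 (0.21, adjusted p = 0.0251) do not stand apart from dim genes at large.

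Among the protocadherins, Pcdh20 fell most. It read 8.21, 7.73 and 7.87 in the CA1 cell body layer and 6.83, 6.36 and 6.36 in the dendritic layer, and in CA2 8.64, 8.80 and 8.56 against 7.15, 6.90 and 7.03. The layers did not overlap, and the falls were 1.42 in CA1 (SE 0.12, adjusted p = 5.12e-06) and 1.64 in CA2 (SE 0.12, adjusted p = 1.77e-06).

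Pcdh15, the protocadherin that pairs with Cdh23 in tip links and is known from oligodendrocyte precursors, read 5.55, 5.55 and 5.57 in the CA1 cell body and 6.87, 6.76 and 6.88 in the CA1 dendritic layer. In CA2 it read 5.84, 5.93 and 5.88 against 7.03, 7.09 and 6.89. It was higher in the dendritic layer by 1.28 in CA1 (SE 0.07, adjusted p = 4.68e-07) and 1.12 in CA2 (SE 0.07, adjusted p = 9.58e-07), with no overlap. The cell body means were near the receptor level, at 5.56 and 5.88.

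The δ2-protocadherin Pcdh18 behaved likewise, at 5.38, 5.41 and 5.38 against 6.82, 6.85 and 6.94 in CA1 and 6.06, 5.76 and 5.77 against 7.15, 7.05 and 6.95 in CA2. Its rises were 1.48 (SE 0.09, adjusted p = 5.61e-07) and 1.19 (SE 0.09, adjusted p = 2.17e-06). Its cell body means, 5.39 and 5.86, did not exceed the receptor level. All 10 mural cell markers were higher in the dendritic layer of both regions, beside the endothelial and glial lists above, and their part in this rise was not tested.

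Of the other δ2-protocadherins, Pcdh19, which in humans underlies a female-limited epilepsy, was lower in the dendritic layer by 0.86 in CA1 (adjusted p = 6.92e-06) and 0.54 in CA2 (adjusted p = 1.92e-04). Pcdh10 (OL-protocadherin) differed by 0.14 in CA1 (adjusted p = 0.1) and was 0.50 lower in CA2 (log2 difference -0.50, adjusted p = 1.75e-04; -0.41 and adjusted p = 0.0644 without the oocyte-positive arrays). Pcdh17 went from 8.83 ± 0.10 to 8.64 ± 0.15 in CA1, a difference of -0.19 (adjusted p = 0.086), and from 8.34 ± 0.06 to 8.65 ± 0.06 in CA2, a rise of 0.31 (adjusted p = 0.016, not called in 5 of 25 alternatives). Pcdh8 (arcadlin), an activity-induced protocadherin of synapses, differed by -0.18 and -0.19 (adjusted p = 0.0529 and 0.0525).

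The 4 δ1-protocadherins split into both directions. Pcdh9 was lower in the dendritic layer, by 0.55 in CA1 (adjusted p = 2.86e-04) and 0.98 in CA2 (adjusted p = 5.72e-06), and so was Pcdh1, at -0.47 (adjusted p = 5.84e-04) and -1.0 (adjusted p = 3.23e-06). Pcdh11x, on the X chromosome, was higher in it, by 0.70 (adjusted p = 2.30e-04) and 0.75 (adjusted p = 1.58e-04). Pcdh7 rose by 0.77 in CA1 (adjusted p = 3.29e-04) and differed by 0.13 in CA2 (adjusted p = 0.445).

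The next comparison asked whether the layer difference of a member differed between CA2 and CA1. It did for 12 of the 35 members, 5 with a larger value in CA2 and 7 with a smaller one, beside 4.81% and 6.81% of all genes (11.6% in either direction). A run shift shared by both layers cancels here. Any run effect of unlike size in the layers cannot be told apart from region. Cdh6, Cdh9 and Cdh10, whose values are given above, passed in all 24 alternatives. The other 9 were lost in at least 1: Cdh19 (1.34), Pcdh10 (-0.64), Pcdh7 (-0.63), Cdh11 and Pcdh1 (0.53 and -0.53), Pcdh17 (0.50), Pcdh9 (-0.42), Cdh24 (-0.33) and Cdh22 (-0.32). Pcdh7, Pcdh9, Pcdh17, Cdh22 and Cdh24 lost the call in 14 to 16 of the 24. Leaving out an array or a replicate number left 5 to 12 called. At 2-fold or more, 3 were larger (0.73% of all genes) and 1 smaller (0.644%). Past the filter on low values, 13 of 32 members and 19.6% of genes were called. Without the oocyte-positive arrays 3 members were called, and 2.32% of all genes in place of 11.6%. After median centring of each array the split was 5 larger and 4 smaller. The median difference of all genes was -0.11, and the regions' layer differences of the members had a median of -0.17.

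The comparison of CA2 with CA1 asked which members mark the cell bodies or the dendritic layer of either field. In the cell body layer, 11 members were higher and 5 lower in CA2, beside 10.6% and 10.5% of all genes (21.1% in either direction). Past the filter on low values, 18 of 32 members and 33.8% of genes were called. Cdh9 and Cdh6 were the 2 members past 2-fold, at 2.04 (SE 0.10, adjusted p = 4.78e-07) and -1.82 (SE 0.15, adjusted p = 1.95e-05), where 0.886% and 1.19% of all genes were. Cdh8 (0.84, adjusted p = 2.15e-05), Pcdh9 (0.88, adjusted p = 4.33e-05), Pcdh20 (0.73), Pcdh7 (0.67) and Pcdh10 (0.50) were higher in CA2, and Pcdh19 (-0.94, adjusted p = 1.34e-05), Cdh10 (-0.70) and Pcdh17 (-0.49) lower. These calls and that of Pcdh18 (0.47, adjusted p = 0.00305) passed in all 25 alternatives. The 5 further calls were Cdh19 (0.61), Pcdh15 (0.33), Pcdh1 (0.27), Cdh24 (0.26) and Pcdh8 (-0.22), and each was lost in 3 or more. After median centring the split was 17 higher and 4 lower, as after quantile normalization, and the median of all genes moved from 0.02 to 0.12.

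For Pcdh9 the cell body arrays read 9.59, 9.57 and 9.52 in CA1 and 10.47, 10.45 and 10.40 in CA2, with the same difference of 0.88 in each same-numbered pair. For Pcdh19 they read 9.76, 9.77 and 9.72 in CA1 and 8.78, 8.78 and 8.88 in CA2. The CA2 cell body arrays were thus all above those of CA1 for Pcdh9 and all below them for Pcdh19. Across the δ1-protocadherins 3 of 4 were higher in the CA2 cell body layer, and of the 5 δ2-protocadherins 2 were higher and 3 lower. Of all genes 10.6% were higher and 10.5% lower. Among these calls, that of Pcdh1 was lost in 8 and that of Pcdh8 in 19 of 25 alternatives.

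Between the dendritic layers, 9 members were higher and 4 lower in CA2, beside 11.6% and 18.6% of all genes (30.2% in either direction), and the member past 2-fold was Cdh19 (1.96, SE 0.15, adjusted p = 5.61e-05), beside 0.292% of all genes. Cdh8 (0.59, adjusted p = 3.60e-04), Pcdh9 (0.46, adjusted p = 0.00299) and Pcdh19 (-0.61, adjusted p = 3.77e-04) had the same direction as in the cell body layer, and these 3 and Cdh19 passed in every alternative. Cdh11 (0.57, adjusted p = 6.74e-04) passed except without the oocyte-positive arrays. The calls for Cdh20 (0.60), Pcdh20 (0.51), Cdh9 (0.34), Cdh5 (0.33), Cdh10 (0.30), Pcdh8 (-0.23), Pcdh1 (-0.26) and Cdh13 (-0.34) were each lost in 2 to 17 of 25 alternatives. Cdh6 differed by 0.01 (SE 0.15, adjusted p = 0.962). Past the filter on low values, 14 of 32 members and 37.2% of genes were called. Without the oocyte-positive arrays 5 members were called, and 6.36% of all genes in place of 30.2%. After median centring, which moved the median of all genes from -0.11 to 0, the split was 12 higher and 1 lower, and of all genes called 70.3% were higher in place of 38.3%. In the dendritic layer 7 of 12 endothelial, 7 of 11 oligodendrocyte and 5 of 8 fibroblast markers were higher in CA2, with 0 lower. Of the interneuron markers 5 of 13 were higher and 2 lower, and of the microglia markers 0 of 11 were higher and 9 lower (median -0.45). Their part in the difference of Cdh19 was not tested.

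**Figure D4:**
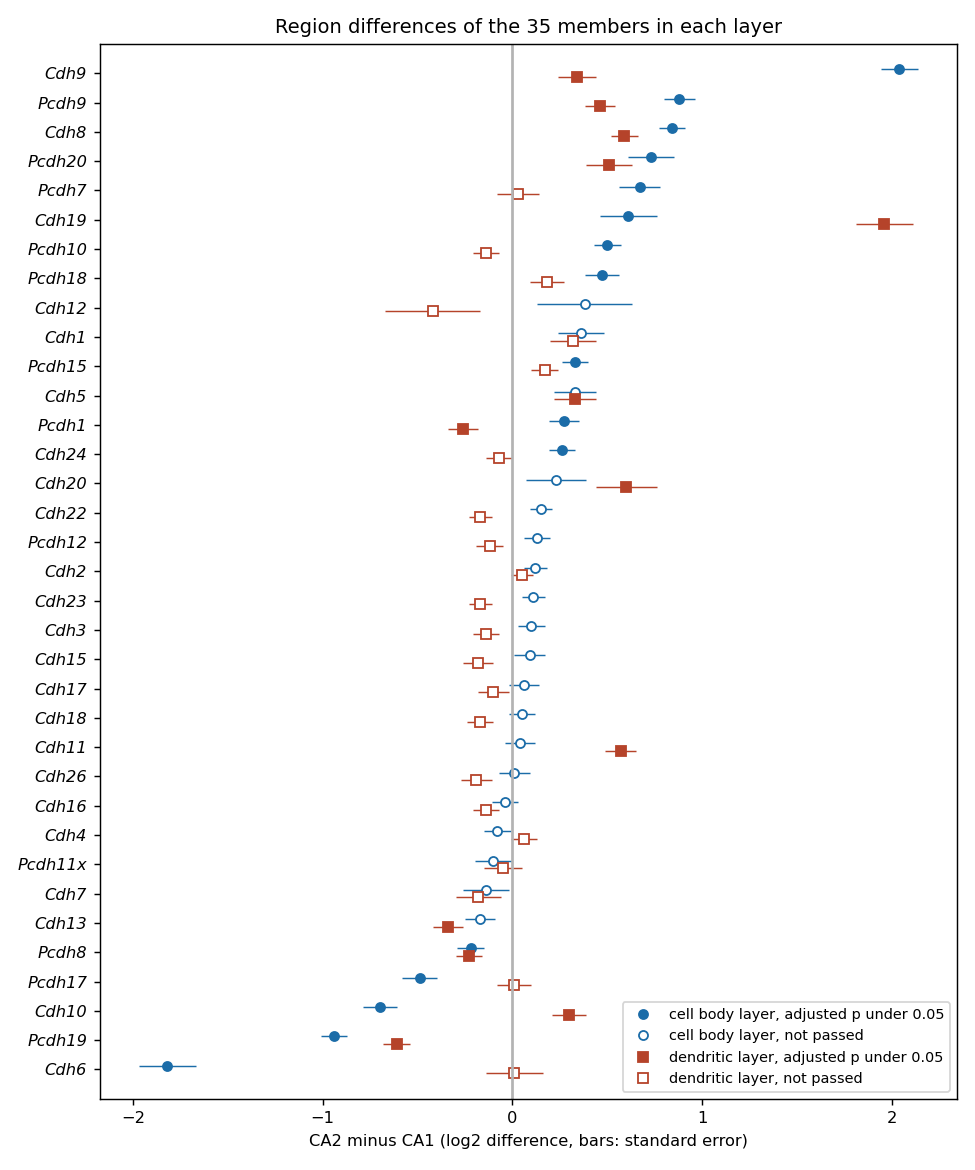
CA2 minus CA1 difference (log2, x axis) of each member in the cell body layer (circles) and the dendritic layer (squares), ordered by the cell body difference; bars are standard errors from limma and filled symbols passed an adjusted p of 0.05. Cell body differences span -1.82 (Cdh6) to 2.04 (Cdh9), and the dendritic difference of Cdh19 (1.96) lies apart from the other squares, which stay between -0.61 and 0.60.

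The intracellular partners of classical cadherins were compared from a list of 30 genes, of which 27 were measured. In the dendritic layer 15 were higher and 3 lower in CA1 (median 0.26, all genes 0.12) and 12 higher and 5 lower in CA2 (median 0.16, all genes -0.03). That is 66.7% and 63.0% of the list, beside 46.9% and 34.0% of all genes. Ctnna1 (αE-catenin), the form of most non-neuronal cells, rose by 1.15 and 1.60, and the receptor phosphatase Ptprm, which binds cadherin complexes, by 1.68 and 1.66. Pkp2 (plakophilin 2), a desmosomal plaque protein, differed by -2.26 and -2.45. Vcl (vinculin), which binds α-catenin under tension, rose by 0.27 in CA1 (limma adjusted p = 0.0135) and by 1.39 in CA2 (adjusted p = 2.55e-07). The layer differences of Vcl differed by 1.13 (adjusted p = 1.65e-04). Its CA2 minus CA1 difference was -1.11 in the cell body layer (adjusted p = 4.63e-06) and 0.02 in the dendritic layer. Ctnnd2 (δ-catenin), the neuronal p120 relative, was lower in CA2 in both layers (-0.62 and -0.56), as was Lrrc7 (densin-180; -0.54 and -1.14). Nectin3, which links to cadherins through afadin, was 0.67 higher in the CA2 cell body layer (adjusted p = 2.46e-04). It is also on the list of CA3 markers used above, and the part of CA3 neurons in its difference was not tested. In the cell body layer 9 of the 27 were higher and 5 lower in CA2 (51.9%, all genes 21.1%), and in the dendritic layer 7 were higher and 5 lower (44.4%, all genes 30.2%).

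The actin partners of the protocadherins, 12 measured of 13 listed, were all called between layers, 4 higher and 8 lower in the dendritic layer of each region (medians -0.38 and -0.56), where 46.9% of all genes were called in CA1 and 34.0% in CA2. Wasf1 (WAVE1), a subunit of the WAVE complex, differed by -1.74 in CA1 and -2.11 in CA2, and the kinase Ptk2b (Pyk2) by -1.78 and -2.63, while Wasf2 (WAVE2) rose by 1.26 and 1.18. Between the cell body layers 1 of the 12 was called, Nckap1 (0.22, adjusted p = 0.0257), beside 21.1% of all genes. In the dendritic layer 6 were lower and 0 higher in CA2, beside 18.6% and 11.6% of all genes, among them Ptk2b (-0.91) and Taok2 (-0.53), a kinase that acts downstream of Pcdh8. The 12 genes had a median of -0.25 there, and all genes -0.11. The alternatives were read for the members only, so calls in the partner lists were not checked under them. Between the dendritic layers, median centring moved the share of all called genes that were higher in CA2 from 38.3% to 70.3%.

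Of 23 measured relatives in the wider superfamily (24 listed), 5 were higher and 7 lower in the CA1 and 3 higher and 8 lower in the CA2 dendritic layer than in the cell body layer (medians 0.15 and -0.03, all genes 0.12 and -0.03). The called shares of 52.2% and 47.8% stand beside 46.9% and 34.0% of all genes. Fat3, a giant atypical cadherin, differed by -1.5 and -1.75. Clstn2 (calsyntenin 2), a postsynaptic cadherin relative, differed by -0.59 in CA1 (limma adjusted p = 2.05e-04) and by -1.51 in CA2 (adjusted p = 3.16e-07). It was 1.19 higher in the CA2 than in the CA1 cell body layer (SE 0.08, adjusted p = 6.17e-06). Fat1 rose by 0.82 in CA1 (limma adjusted p = 8.36e-05) and by 1.55 in CA2 (adjusted p = 9.77e-07). Between the dendritic layers, the planar polarity genes Celsr2 and Celsr3 were lower in CA2 than in CA1 (CA2 minus CA1 -0.60 and -0.51).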

How the data were processed

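The deposited values are log2 expression made by the authors with RMA, per the submitters' processing notes; the sources used here give neither the software nor whether both runs were normalized together. Quantile normalization inside RMA can lift dim features where labelled target is weak. Per the labels' protocols, 5 to 7 ng of RNA with an integrity number of 6.9 to 7.5 was amplified. Of 72688 features, 30604 had 1 gene symbol; 22818 were matched to RefSeq (GRCm38.p6) through Entrez identifiers, and the brightest feature per symbol was kept. All 30142 genes were fitted together in limma 3.58.1 (R 4.3.3) (12 arrays), each group having its own mean and replicate numbers entering as a block, since 4 pieces came from each of 3 mice. Calls are two-sided at an adjusted p (Benjamini-Hochberg) under 0.05. The labels do not say that a number stands for a mouse. The fit was tested on simulated data. No read depth exists; the number of arrays limits precision.

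All members may be named, and those called at 2-fold or more in any comparison are given on every array; of the partner lists, up to 4 called genes with the smallest p per comparison. Members and lists were chosen with earlier results of these data known. Alternatives left out each array, each replicate number or the arrays with oocyte transcripts, and changed the block, normalization, variance model, weights, filter and features. Of the members, 32 passed the filter on low values, the 95th percentile of 1717 olfactory and vomeronasal receptor genes in at least 1 group.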

Additional observations from a re-analysis of the deposited data

Results flagged for a closer look

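In 12 members the layer difference (dendritic minus cell body, log2) differed between CA2 and CA1 by limma's test of that difference (adjusted p under 0.05 over 30142 genes). It was larger in CA2 for Cdh6 (1.83), Cdh19 (1.34), Cdh10 (1.01), Cdh11 (0.53) and Pcdh17 (0.50). It was smaller in CA2 for Cdh9 (-1.71), Pcdh10 (-0.64), Pcdh7 (-0.63), Pcdh1 (-0.53), Pcdh9 (-0.42), Cdh24 (-0.33) and Cdh22 (-0.32). Each of the 12 kept its sign in 3 of 3 same-numbered sets of arrays. These are the arrays that gave the calls, so this is no separate support for them. Groups of 3 arrays are too small for a test of single outlying arrays.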

How the results depend on the processing

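No member's call between groups turned direction under any alternative. Of 84 calls over the 5 comparisons, 51 held in every alternative. A further 27 results that were not called in the main fit were called in at least 1 alternative. Leaving out a replicate or an array gave 18 to 25 called members for the CA1 layers (23 with all arrays), 17 to 21 for the CA2 layers (20), 5 to 12 for the difference of layer differences (12), 11 to 17 for the cell body layers (16) and 7 to 14 for the dendritic layers (13). For the difference of layer differences, 7 members were called with p-values adjusted over all features and 3 without the arrays with oocyte transcripts. For the dendritic layers, 6 were called from these groups alone, 7 with array weights, 8 over all features and 5 without the arrays with oocyte transcripts. The cause was not tested, beyond that some of these use fewer arrays or adjust over more features; without the arrays with oocyte transcripts 1 CA2 dendrite array remains, assumed to vary like the other groups. Without the replicate block, 23, 21, 14, 15 and 15 members were called for the CA1 layers, the CA2 layers, the difference of layer differences, the cell body layers and the dendritic layers, so the block moved no count by over 1.5 times. As a check of pairing, deviations from the group means correlated above 0.1 in 1 of 18 same-numbered pairs of arrays (-0.346 to 0.132) and in 6 of 36 other pairs (-0.134 to 0.251).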

Other observations

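Several members are next to each other in the genome, and neighbours moved in like and in unlike directions. On chromosome 15, where Cdh6, Cdh9, Cdh10 and Cdh12 follow each other with no protein-coding gene between, the CA2 minus CA1 differences in the cell body layer were -1.82, 2.04, -0.70 and 0.38 (the last with an adjusted p = 0.347 in limma). On chromosome 8, Cdh8, Cdh11 and Cdh5 follow each other, and their dendritic minus cell body differences were -1.63, -1.33 and 2.17 in CA1 and -1.87, -0.80 and 2.18 in CA2. On chromosome 14, Pcdh20 and Pcdh9 are neighbours, and both were lower in the dendritic layer of each region and higher in CA2 in both layers. On chromosome 1, Cdh7 and Cdh19 are neighbours, and Cdh19 was called in all 5 comparisons. The values of Cdh7 lay between -0.31 and -0.04 without a call in the main fit. Its CA2 layer difference was called in 5 of 25 alternatives and its CA1 layer difference in 2.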
